A study of Danio rerio with 6 samples.

Results

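The collagen genes were followed in whole zebrafish larvae in which the cells that form myelin had been made sensitive to metronidazole. A gene was taken as a collagen gene when its symbol in the platform's table began with col, a type number, the letter a and a chain number. Of 19260 genes with a single symbol, 48 met this rule, and where several transcript clusters carried 1 symbol, the brightest by its mean on the 6 arrays stood for the gene. By type number, 14 were fibrillar collagens (types I, II, V, XI and XXVII), 10 were collagens of the basement membrane (types IV, XV and XVIII) and 24 were of other types.

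All larvae carried the transgene Tg (mbp:nfsB-egfp), in which the myelin basic protein (mbp) promoter drives bacterial nitroreductase fused to GFP, so that myelin-forming cells turn metronidazole into a toxic product. The 3 metronidazole arrays held RNA of larvae at 10 dpf (days post fertilization) that had been kept in 5 mM metronidazole with 0.2% DMSO, the solvent, in the dark for 5 days from 5 dpf. The 3 control arrays held RNA of larvae of the same line and age in 0.2% DMSO without the drug. RNA of 5 larvae was pooled for each array and was made from 3 batches of larvae. Larvae without the transgene in metronidazole were not analysed here, so that an effect of the drug itself and an effect of losing the nitroreductase cells cannot be told apart.

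Collagens are secreted proteins of 3 chains wound into a triple helix, and each gene encodes 1 kind of chain. Fibrillar collagens assemble into the cross-banded fibrils of bone, cartilage, tendon and skin, type IV forms the sheet-like network of basement membranes, and the remaining types bind to fibrils, form fine filaments or span the cell membrane. The chains are hydroxylated and folded in the endoplasmic reticulum with the help of dedicated enzymes and chaperones, then trimmed and crosslinked outside the cell. A zebrafish larva makes fibrillar collagen in its cartilage, early bone, notochord sheath, fins and the connective tissue under the skin.

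The values were log2 signals, and the medians over all 75212 transcript clusters lay between 5.1 and 5.14 on the 6 arrays. A difference is the mean log2 signal in metronidazole less that in control, so a negative one means lower in metronidazole, and its standard error comes from limma, a linear model fitted to every transcript cluster. Benjamini-Hochberg adjustment of p covered the whole array. With 3 arrays in each group, precision was limited by their number. The signal of a transcript cluster depends on its probes as well as on its RNA, so levels are not compared between genes, and a small difference in a dim transcript cluster is no sign of an unchanged gene. In whole larvae, fewer cells of a type and less RNA per cell cannot be told apart. The ablated cells' own gene mbpa had log2 signals of 8.28, 8.71 and 8.66 in metronidazole-treated larvae, against 8.69, 8.61 and 8.77 in control larvae, so the arrays of the groups overlapped for it. The 5 measured of 8 listed markers of myelin-forming cells summed to linear signals between 924 and 1130 on the metronidazole arrays and between 1090 and 1120 on the control arrays.

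The collagen genes did not pass the test between the treatments, and most of their variation followed the replicate number. At an adjusted p under 0.05, limma called 0 of the 48 genes and 0% of all genes, and the lowest adjusted p among the collagen genes was 0.952. At an unadjusted p under 0.05, 0 collagen genes were lower and 0 were higher in metronidazole-treated larvae, while 4.27% of all genes were lower and 1.68% were higher. The median difference was -0.16 over the collagen genes and 0.02 over all genes. Of the 48 differences, 33 were negative, or 68.8%, beside 46.5% of all genes. The fold criterion of 2-fold was met by 1 collagen gene, which was lower, beside 2.02% of all genes lower and 0.218% higher. Groups without overlap, every metronidazole array below or above every control array, were found for 0 collagen genes on the lower side and 1 on the higher side, beside 5.73% and 5.14% of all genes. Single arrays carried weight in these values: the median over the 48 genes was 0.06 without metronidazole replicate 1 and -0.33 without control replicate 1.

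**Figure D1:**
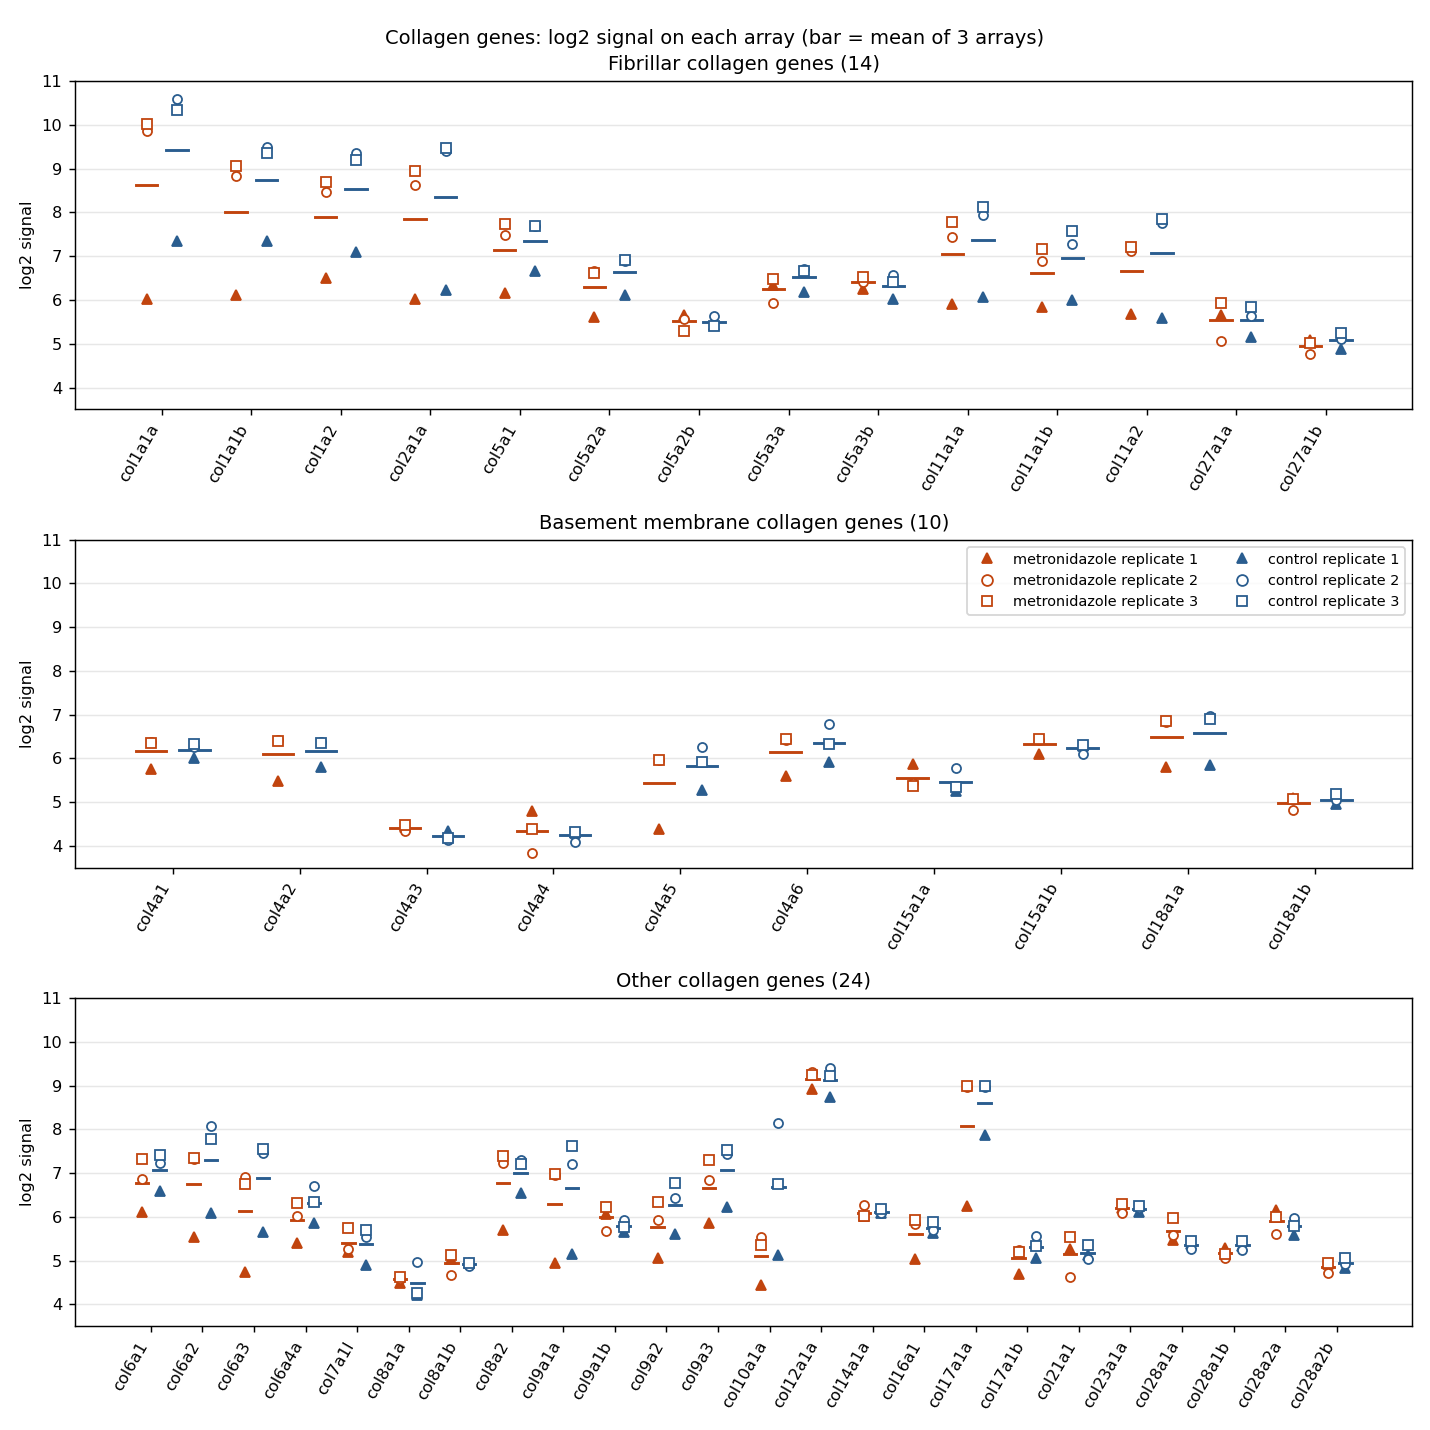
Log2 signal (vertical axis) of each of the 48 collagen genes on each array, by class, with metronidazole arrays in red left of control arrays in blue, filled triangles for replicate 1 and a bar at the mean of 3 arrays. For col1a1a, replicate 1 lies at 6.02 in metronidazole-treated and 7.35 in control larvae, while the other 4 arrays lie between 9.87 and 10.58.

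When the replicate number was added to the model as a block, so that each metronidazole array was set against the control array of the same number, the picture changed for single genes at the unadjusted p. With the block, 9 of 48 collagen genes (18.8%) had an unadjusted p under 0.05 and were lower in metronidazole-treated larvae and 0 were higher, beside 6.9% and 2.38% of all genes, and the lowest adjusted p was 0.502, so none of them passed the adjusted test. In all 3 replicate pairs, 19 collagen genes (39.6%) were lower in the metronidazole array and 2 (4.17%), col4a3 and col28a1a, were higher, beside 15.8% and 15.8% of all genes. The 19 include col17a1a, whose differences rounded to -0.00 in replicates 2 and 3. By class, 7 of 14 fibrillar genes, 1 of 10 basement membrane genes and 11 of 24 other genes were lower in every pair. An exact sign-flip test on 3 pairs cannot give a two-sided p below 0.25. When both arrays of replicate 1 were left out, an added check chosen with the values in view, 8 of the 48 genes were lower and 0 were higher at an unadjusted p under 0.05 by limma with 2 arrays in each group, beside 7.89% and 4.47% of all genes, and the lowest adjusted p was 0.459.

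**Figure D2:**
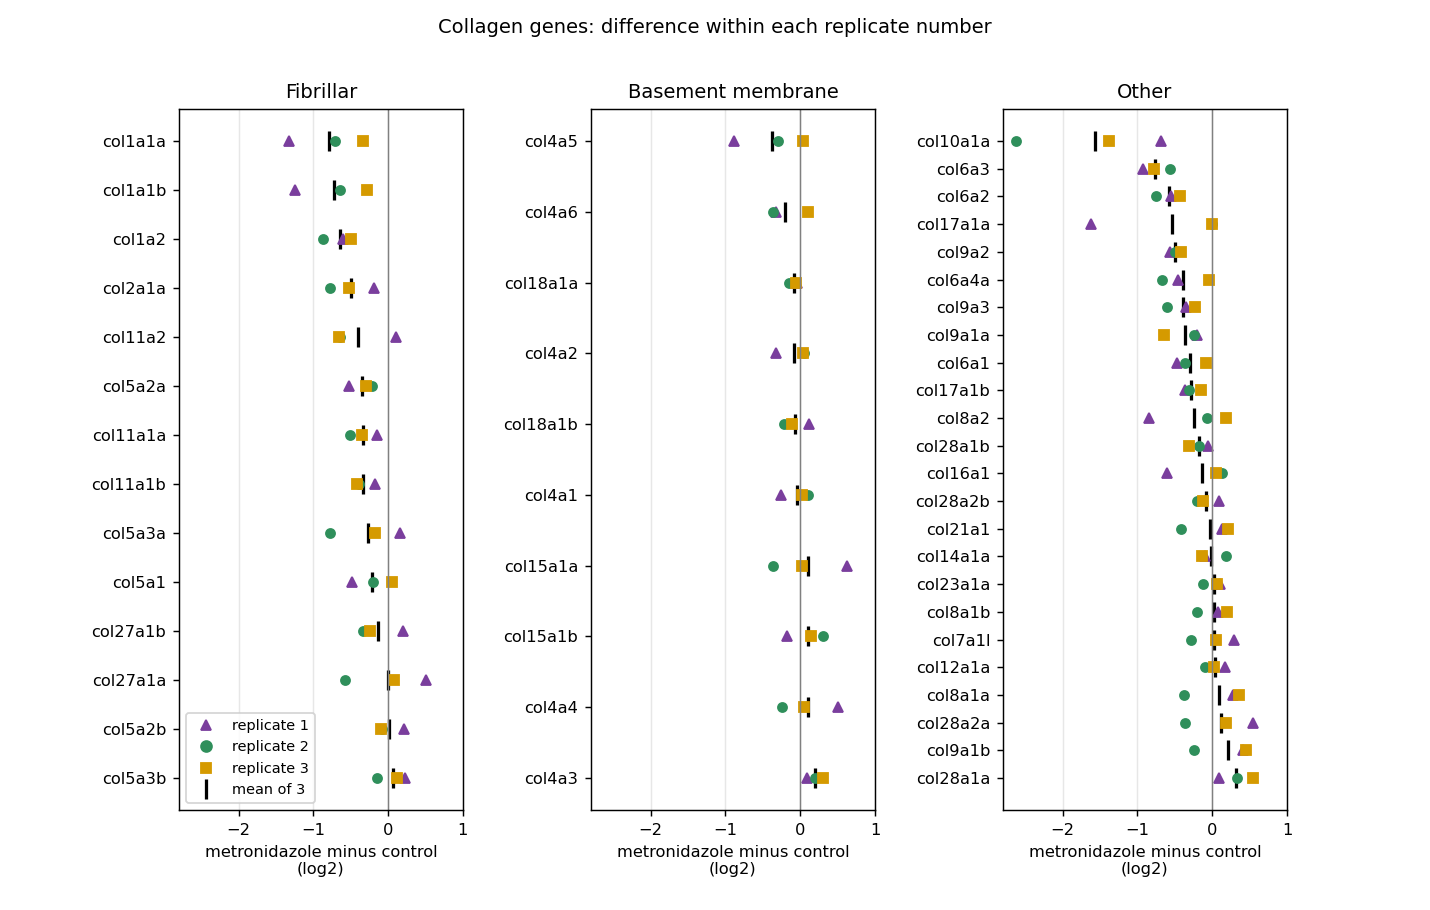
Difference of metronidazole minus control (horizontal axis, log2) for each collagen gene within replicates 1, 2 and 3 (coloured symbols) and as the mean of 3 (black bar), by class. All 3 symbols lie left of 0 for 7 fibrillar, 1 basement membrane and 11 other genes.

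Type I collagen, the main fibril of bone, tendon and skin, is built in zebrafish from the chains of col1a1a, col1a1b and col1a2. The log2 signal of col1a1a was 6.02, 9.87 and 10.01 in metronidazole-treated larvae, against 7.35, 10.58 and 10.34 in control larvae. Replicate 1 was far below the other 2 arrays in both groups, so the groups overlapped, while within every replicate the metronidazole array was the lower. The difference was -0.79 with a standard error of 1.30 (limma adjusted p = 0.967), or -1.33, -0.71 and -0.33 within the replicates. With the block the standard error was 0.23 (unadjusted p = 0.0173, limma adjusted p = 0.616). Without metronidazole replicate 1 alone the difference of col1a1a was 0.52 and without control replicate 1 alone it was -1.83, so its sign in the unpaired comparison rested on which replicate 1 array was kept.

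The paralog col1a1b had 6.11, 8.84 and 9.07 in metronidazole-treated larvae, against 7.35, 9.49 and 9.35 in control larvae, a difference of -0.72 (standard error 0.92). Again replicate 1 was lowest in both groups and each metronidazole array was below its control partner. For col1a2 the signals were 6.49, 8.47 and 8.70 in metronidazole-treated larvae, against 7.09, 9.35 and 9.20 in control larvae. Its difference was -0.65 (standard error 0.79), and within the replicates -0.60, -0.87 and -0.50. All type I genes were thus lower in each pair, beside 15.8% of all genes. In replicate 1 the differences of col1a1a and col1a1b (-1.24) were larger than that of col1a2. The unadjusted p with the block was 0.0217 for col1a1b and 0.00722 for col1a2, and the limma adjusted p with the block was 0.646 and 0.539.

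Replicate 1 was also the lowest array of both groups for the genes of types II and XI, which form the fibrils of cartilage. The gene col2a1a, the chain of type II collagen in cartilage and the notochord sheath, had 6.03, 8.62 and 8.95 in metronidazole-treated larvae, against 6.22, 9.40 and 9.47 in control larvae. Its difference was -0.50 (standard error 1.10), or -0.19, -0.78 and -0.52 within the replicates, with an unadjusted p of 0.0324 in the model with the block (limma adjusted p = 0.668). The type XI chain gene col11a1b had 5.83, 6.88 and 7.17 in metronidazole-treated larvae, against 6.01, 7.27 and 7.58 in control larvae, a difference of -0.33 (standard error 0.50). The other type XI genes, named after their values were seen, had differences of -0.34 for col11a1a and -0.40 for col11a2, and col11a2 was 0.10 higher in metronidazole-treated larvae in replicate 1 and lower in the other 2 replicates.

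Type V collagen initiates fibrils, and type XXVII is a further fibrillar collagen. The gene col5a2a had 5.60, 6.67 and 6.62 in metronidazole-treated larvae, against 6.12, 6.89 and 6.91 in control larvae, a difference of -0.35 (standard error 0.35) that was negative in every pair. The gene col5a3a had a difference of -0.27 (standard error 0.21), but 0.16, -0.78 and -0.18 within the replicates, so its brightest cluster did not keep its sign. A further, dimmer transcript cluster of col5a3a gave -0.22 (standard error 0.17) and was lower in every pair. It had 4.52, 4.59 and 4.71 in metronidazole-treated larvae, against 4.65, 4.70 and 5.14 in control larvae. The gene col27a1b, whose collagen lies in cartilage, had -0.13 (standard error 0.16), with 0.20, -0.34 and -0.24 within the replicates. The differences of the 14 fibrillar genes lay between -0.79 and 0.07 with a median of -0.33, and 4 of them (28.6%) were lower at an unadjusted p under 0.05 with the block, beside 6.9% of all genes.

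The basement membrane collagens had the median difference closest to 0 of the 3 classes, at -0.05, with a range between -0.38 and 0.20 and 0 of 10 genes at an unadjusted p under 0.05 with or without the block. Their mean signals reached at most 6.54, below the median of 6.75 over all genes, while the fibrillar genes had a median signal of 6.83. The 14 collagen genes of any class at or above 6.75 had a median difference of -0.40, with 13 negative. The 34 below it had -0.05, with 20 negative. Over all genes with a mean signal of 7 or more, the median difference was 0.05, with 3442 of 8409 negative. The 9 collagen genes at that signal had a median of -0.54, with 8 negative. The part of the signal in the contrast between the classes was not tested. The chains col4a1 and col4a2, which together form the type IV collagen of most basement membranes and lie next to each other in the RefSeq gene order, had differences of -0.04 (standard error 0.21) and -0.08 (standard error 0.30). The gene col4a1 had 5.76, 6.38 and 6.35 in metronidazole-treated larvae, against 6.02, 6.26 and 6.32 in control larvae, so that the metronidazole array was lower in replicate 1 only. The neighbours col4a5 and col4a6 had differences of -0.38 (standard error 0.48) and -0.20 (standard error 0.31), and both were lower in replicates 1 and 2 and higher in replicate 3. A further, dimmer transcript cluster of col4a6 gave -0.41 (standard error 0.21) and was lower in every pair. That cluster had 4.85, 4.84 and 5.33 in metronidazole-treated larvae, against 5.16, 5.71 and 5.36 in control larvae. For col4a5 the signals were 4.39, 5.96 and 5.96 in metronidazole-treated larvae, against 5.28, 6.26 and 5.92 in control larvae. The gene col4a3, known from the kidney filter in mammals, was the 1 member of this class that was higher in every pair, at 4.43, 4.34 and 4.49 in metronidazole-treated larvae, against 4.35, 4.14 and 4.19 in control larvae (difference 0.20, standard error 0.13). Its mean signal was 4.32, and the filter on dim clusters left it out.

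Types XV and XVIII, which carry both collagen and sugar chains at the basement membrane, had differences between -0.08 and 0.10. The gene col18a1a, whose protein holds the fragment endostatin, had 5.81, 6.83 and 6.85 in metronidazole-treated larvae, against 5.86, 6.98 and 6.90 in control larvae. Replicate 1 was the lowest array in both groups, and the difference was -0.08 (standard error 0.40), with -0.04, -0.15 and -0.05 within the replicates. The differences of col18a1b, col15a1a and col15a1b were -0.07, 0.10 and 0.10, and a further transcript cluster of col15a1a gave -0.10.

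Among the other types, col10a1a had the most negative difference of all 48 genes. Type X collagen marks maturing cartilage in mammals, and in zebrafish col10a1a is also made by bone-forming cells. Its signals were 4.45, 5.53 and 5.36 in metronidazole-treated larvae, against 5.14, 8.15 and 6.74 in control larvae. Each metronidazole array was below its partner, with differences of -0.69, -2.62 and -1.38, but control replicate 1 lay below metronidazole replicates 2 and 3, so the groups overlapped. The difference was -1.57 (standard error 0.73), a fold of 0.338 (limma unadjusted p = 0.0707, adjusted p = 0.952), and with the block the unadjusted p was 0.00908 and the limma adjusted p was 0.552. Without control replicate 2 the difference was -0.83, short of the fold criterion, and without control replicate 1 it was -2.33. Further transcript clusters with this symbol gave differences of -0.98 (standard error 0.61) and -0.03 (standard error 0.27), the second from a dim cluster with signals between 3.61 and 4.48.

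The fibril-associated type IX, which coats type II fibrils in cartilage, was lower in every pair in 3 of its 4 genes, beside 15.8% of all genes. The gene col9a1a had 4.94, 6.95 and 6.97 in metronidazole-treated larvae, against 5.15, 7.20 and 7.62 in control larvae, a difference of -0.37 (standard error 0.79). The gene col9a2 had 5.06, 5.93 and 6.34 in metronidazole-treated larvae, against 5.62, 6.43 and 6.77 in control larvae. Its differences of -0.57, -0.50 and -0.42 within the replicates were close to each other, and with the block its unadjusted p was 0.0141 (limma adjusted p = 0.591). The gene col9a3, outside the naming rule, had a difference of -0.39 and an unadjusted p of 0.045 with the block (limma adjusted p = 0.696), while col9a1b, also outside it, had 0.21 and went both ways. In contrast, col12a1a, a fibril-associated collagen of fascia and muscle attachments, had 8.91, 9.31 and 9.24 in metronidazole-treated larvae, against 8.74, 9.40 and 9.21 in control larvae, and a difference of 0.04 (standard error 0.21).

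Type VI collagen forms beaded filaments around muscle fibres and other cells. All 4 of its measured genes were lower in every pair, beside 15.8% of all genes. These 4 were measured on the same 6 arrays and are not independent replicates. The gene col6a3, outside the naming rule, had 4.73, 6.91 and 6.76 in metronidazole-treated larvae, against 5.66, 7.47 and 7.54 in control larvae. Its difference was -0.76 (standard error 0.73), and within the replicates it was -0.93, -0.56 and -0.78, which gave the lowest unadjusted p of the 48 genes with the block (0.0037, limma adjusted p = 0.502). The gene col6a2 had a difference of -0.58 (standard error 0.67, with the block unadjusted p = 0.0103 and limma adjusted p = 0.563), col6a1 had -0.30 (standard error 0.35) and col6a4a -0.39 (standard error 0.30). The genes col6a1 and col6a2 had -0.08 and -0.43 in replicate 3, where col6a4a had -0.04.

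Type XXVIII collagen, found in peripheral nerves in mice, held the 1 collagen gene whose arrays did not overlap. That was 2.08% of the 48 collagen genes, below the 5.14% of all genes that were higher without overlap. The gene col28a1a had 5.48, 5.59 and 5.98 in metronidazole-treated larvae, against 5.39, 5.26 and 5.44 in control larvae. Every metronidazole array was above every control array, with a difference of 0.32 (standard error 0.17, limma unadjusted p = 0.104, adjusted p = 0.952). Without overlap a two-sided exact permutation test gives p = 0.1, the smallest that 3 arrays against 3 allow. Its paralog col28a1b had the opposite sign in every pair, with a difference of -0.18 (standard error 0.13).

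The membrane-spanning type XVII anchors basal skin cells to the basement membrane through hemidesmosomes. The gene col17a1a had 6.25, 8.96 and 8.99 in metronidazole-treated larvae, against 7.87, 8.97 and 8.99 in control larvae. Its difference was -0.54 (standard error 0.77), or -1.62 within replicate 1, and -0.00 when both arrays of replicate 1 were left out. The 14 measured of 17 listed markers of the epidermis, mostly keratins, all had negative differences, beside 46.5% of all genes. Their median was -0.84, and 8 of them were lower in every pair, beside 15.8% of all genes. The median difference of these markers was -1.16, -0.52 and -0.60 within the replicates and -0.51 when both arrays of replicate 1 were left out. Their summed linear signal was 5150, 20700 and 16800 on the metronidazole arrays, against 15500, 22900 and 21100 on the control arrays. The part of these markers in the values of col17a1a and the other collagen genes was not tested. The paralog col17a1b had -0.28 (standard error 0.21) and was lower in every pair.

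Replicate 1 stood apart from replicates 2 and 3 for most collagen genes in both treatments. In 30 of the 48 genes (62.5%) replicate 1 had the lowest of the 3 arrays in metronidazole-treated larvae and also in control larvae, beside 18.9% of all genes, and in 0 genes it was the highest in both, beside 19.4% of all genes. The median of replicate 1 minus the mean of replicates 2 and 3 was -0.68 in metronidazole-treated and -0.58 in control larvae over the collagen genes, and -0.02 and 0.03 over all genes. The fibrillar genes differed by -1.32 in metronidazole-treated and -1.22 in control larvae at the median, the basement membrane genes by -0.47 and -0.29, and the others by -0.45 and -0.49. For col1a1a this gap was -3.92 in metronidazole-treated and -3.12 in control larvae, and for col2a1a it was -2.76 and -3.21. Across the 48 genes the 2 gaps correlated with Pearson's r = 0.858 (Spearman's rho = 0.83), and across all genes with r = 0.292 (rho = 0.281). Genes are not independent replicates, and these are descriptions of 6 arrays.

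**Figure D3:**
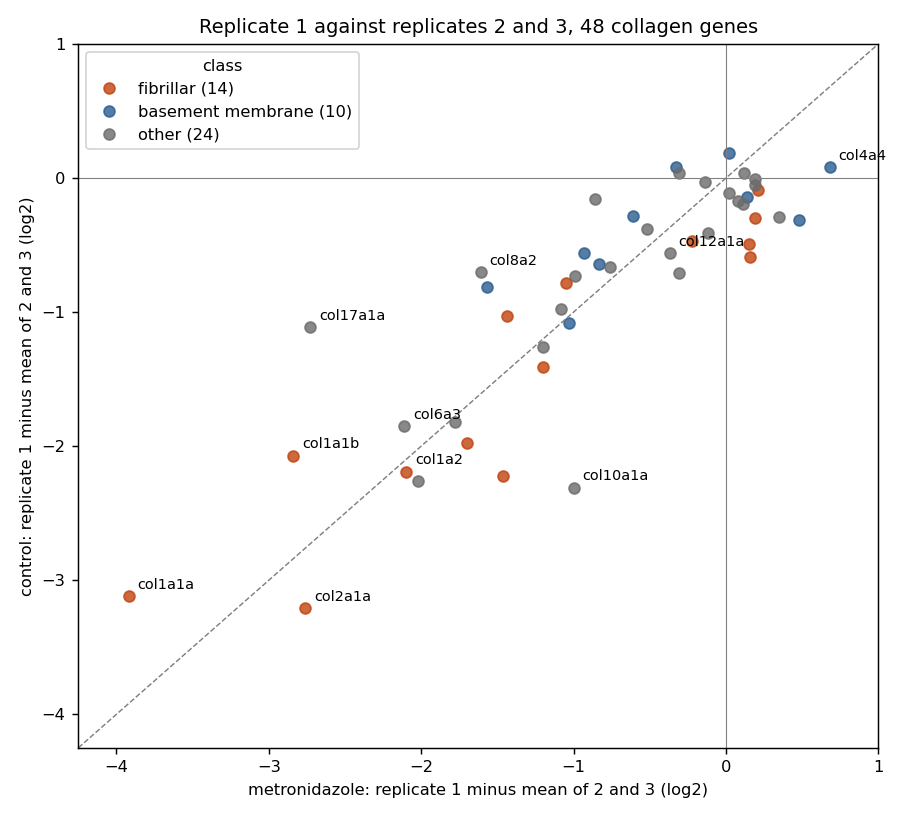
Replicate 1 minus the mean of replicates 2 and 3 (log2) in metronidazole-treated larvae (horizontal axis) and in control larvae (vertical axis), 1 point for each of 48 collagen genes, coloured by class, with a dashed line of equal values. The points run along the line down to col1a1a at -3.92 in metronidazole-treated and -3.12 in control larvae, with some genes off it, such as col16a1 at -0.86 and -0.16.

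The squared deviations over the 6 arrays were split into a part between the replicate numbers (2 of 5 degrees of freedom), a part between the treatments (1) and the rest (2). Over the 48 collagen genes 85.0% of the sum lay between the replicate numbers and 9.80% between the treatments. For the fibrillar genes these shares were 91.6% and 5.84%, for the basement membrane genes 81.7% and 5.87%, and for the other types 76.2% and 15.9%. Over all genes they were 46.8% and 24.7%. The genes that vary most weigh most in these sums, and at the median collagen gene the shares were 78.4% and 6.45%, beside 42.2% and 14.9% at the median of all genes.

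**Figure D4:**
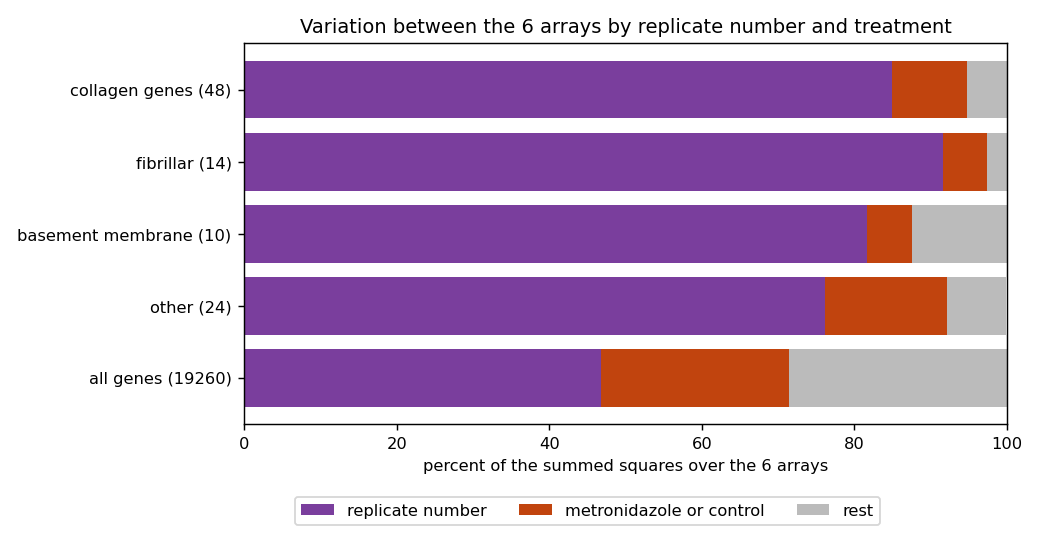
Share of the summed squares over the 6 arrays (horizontal axis, percent) between replicate numbers, between metronidazole and control, and the rest, for the collagen genes, their 3 classes and all genes. The part of the replicate number is 85.0% for the collagen genes and 46.8% for all genes.

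Genes that serve collagen were counted in lists drawn up by function. Of 35 listed genes for collagen synthesis and secretion, 32 were measured, with a median difference of -0.19 and 26 negative, where 46.5% of all genes were negative. At an unadjusted p under 0.05, 1 was lower and 0 were higher, beside 4.27% and 1.68% of all genes, so this count was no more than the share over all genes. That gene was serpinh1b, 1 of a pair that encode the collagen chaperone of the endoplasmic reticulum, at 4.0, 4.03 and 3.61 in metronidazole-treated larvae, against 4.20, 4.74 and 4.63 in control larvae (difference -0.64, standard error 0.20, limma adjusted p = 0.952). The gene was dim, with a mean signal of 4.20 where the medians of the arrays were 5.1 to 5.14, and the filter on dim clusters left it out. Its unadjusted p in limma, 0.0155 with all arrays, passed the threshold no longer when control replicate 2 (0.057) or metronidazole replicate 3 (0.0534) was left out. The other, serpinh1a, had 5.01, 6.65 and 6.90 in metronidazole-treated larvae, against 6.39, 7.53 and 7.93 in control larvae. It had replicate 1 lowest in both groups like the fibrillar collagens, and its difference of -1.10 (standard error 0.59) had an unadjusted p of 0.00106 with the block (limma adjusted p = 0.479). It was -0.51 without metronidazole replicate 1 and -1.54 without control replicate 1. The gene sec23b, also named by p, had -0.36 (standard error 0.19) and was 0.05 higher in metronidazole-treated larvae in replicate 1. The gene p4hb, a subunit of the enzyme that hydroxylates proline in the chains, had -0.38 (standard error 0.19), with each metronidazole array below each control array. That held for 2 of the 32 genes, beside 5.73% of all genes. Outside the naming rule, p4ha1a, p4ha1b, p4ha2 and p4ha3, for other subunits of this enzyme, had -0.12, -0.03, 0.12 and 0.15. With the block 3 of the 32 genes were lower and 0 higher at an unadjusted p under 0.05, beside 6.9% and 2.38% of all genes. These were serpinh1a, serpinh1b (limma unadjusted p = 0.0232, adjusted p = 0.651) and ppib (difference -0.43, limma unadjusted p = 0.0265, adjusted p = 0.655).

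Of 28 listed genes for trimming and crosslinking of procollagen, 19 were measured, and 4 were lower and 0 higher at an unadjusted p under 0.05, beside 4.27% and 1.68% of all genes. All 4 encode meprins, proteases that can trim procollagen and that also sit in the brush border of the gut: mep1ba (-2.60), mep1a.1 (-1.76), mep1bb (-1.70) and mep1a.2 (-1.37), each with a limma adjusted p of 0.952. The difference of mep1bb was -0.91 without metronidazole replicate 1 and -2.35 without metronidazole replicate 2, and without metronidazole replicate 3 or any 1 control array its unadjusted p was above 0.05, at 0.0582 to 0.111. The markers of gut enterocytes moved with them: 11 of 11 measured ones, 2 of them meprins, were negative, beside 46.5% of all genes. The summed linear signal of these markers lay between 2110 and 6590 on the metronidazole arrays, against 7220 to 10600 on the control arrays. Their part in the meprin values was not tested. Of 21 listed proteoglycans and glycoproteins that bind fibrils, 19 were measured and 15 were negative, beside 46.5% of all genes, with a median of -0.25. With the block 4 of them were lower and 0 higher at an unadjusted p under 0.05, beside 6.9% and 2.38% of all genes, among them ogna (-0.73, unadjusted p = 0.00504, limma adjusted p = 0.515) and lum (-0.58, unadjusted p = 0.00968, limma adjusted p = 0.554), which encode osteoglycin and lumican, small proteoglycans on collagen fibrils. Without metronidazole replicate 1 these differences were -0.34 for ogna and -0.18 for lum, and the lowest values were -1.03 for ogna without metronidazole replicate 2 and -0.95 for lum without control replicate 1. Of the 19 fibril-binding genes, 11 were lower and 2 higher in every pair, beside 15.8% and 15.8% of all genes. Without the block, dpt had the lowest unadjusted p (limma, 0.0988) and was higher in every pair (0.28, standard error 0.15). The gene thbs4a had -0.30 (standard error 0.16). The filter on dim clusters left out lum, dpt and thbs4a, whose mean signals were 4.74, 3.42 and 4.46.

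Partners in the basement membrane, among them laminins, the Fras1 and Frem proteins and nidogens, gave a median of -0.06 over 21 of 28 listed genes, with 0 at an unadjusted p under 0.05, 1 lower with the block (the laminin gene lamb4, unadjusted p = 0.0426, limma adjusted p = 0.694) and 12 with replicate 1 lowest in both groups. The laminin gene lamb1a had -0.49 (standard error 0.44), the proteoglycan gene agrn 0.15 (standard error 0.14) and frem1b -0.24 (standard error 0.21). Collagen receptors gave a median of 0.06 over 13 of 19 listed genes, with 0 at an unadjusted p under 0.05 and 1 lower with the block. Replicate 1 was lowest in both groups for 1 of these 13. Over all genes, 4.27% were lower and 1.68% higher at an unadjusted p under 0.05, and 6.9% and 2.38% with the block. With the block, 1 of 21 partners and 1 of 13 receptors were thus near the share over all genes. Replicate 1 was lowest in both groups for 18.9% of all genes. The receptor gene lower with the block was itga10, a collagen-binding integrin of cartilage cells. It had 4.26, 4.76 and 4.59 in metronidazole-treated larvae, against 4.62, 5.20 and 5.22 in control larvae, a difference of -0.48 (standard error 0.22, with the block unadjusted p = 0.0193 and limma adjusted p = 0.633). Its mean signal was 4.77, and the filter on dim clusters left it out. The other receptor genes named by p were ddr2b (-0.36, standard error 0.20), ddr2a (0.22, standard error 0.13) and itga1 (-0.32, standard error 0.22). Of the 13 receptor genes, 5 had negative and 8 positive differences.

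**Figure D5:**
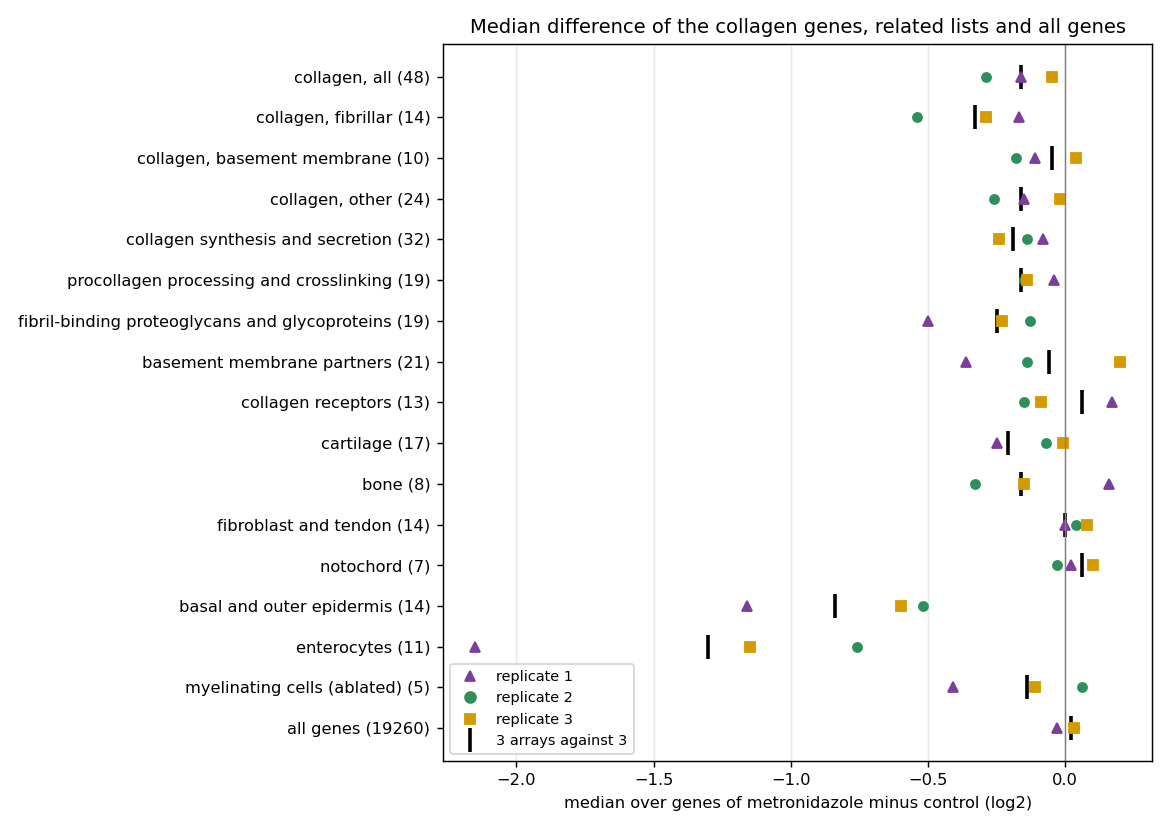
Median over genes of metronidazole minus control (horizontal axis, log2) for the collagen genes, the related lists, the cell type markers and all genes, within replicates 1, 2 and 3 (coloured symbols) and for 3 arrays against 3 (black bar), with the number of measured genes in brackets. The fibrillar genes lie at -0.33 and all genes at 0.02, while the enterocyte markers lie at -1.30.

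Markers of the cells that make collagen differed among themselves. All 17 listed cartilage markers were measured, with summed linear signals between 2170 and 3910 on the metronidazole arrays and between 2700 and 4280 on the control arrays. Of these markers, 13 had replicate 1 lowest in both groups, beside 18.9% of all genes. Replicate 1 held the lowest cartilage sum in either group. Of the 14 markers of fibroblasts and tendon, 7 had negative and 7 positive differences, and 6 had replicate 1 lowest in both groups. Their sums lay between 2610 and 2640 on the metronidazole arrays and between 2440 and 2650 on the control arrays. Bright genes, such as xirp2a with a mean signal of 9.16, weigh most in such sums. In this list 2 genes were lower and 2 higher in every pair, beside 15.8% and 15.8% of all genes. The marker tnmd, lower in every pair, had -0.65 (standard error 0.66) and replicate 1 lowest in both groups. With the block its unadjusted p was 0.0275 (limma adjusted p = 0.655). The other marker lower in every pair was prrx1b (-0.30, standard error 0.26). The 2 higher in every pair were tnfaip6 (0.57, standard error 0.36) and dpt (0.28, standard error 0.15). The 7 notochord markers summed to between 699 and 801 on the metronidazole arrays and between 629 and 800 on the control arrays. Of 11 bone markers 8 were measured, with sums between 391 and 465 on the metronidazole arrays and between 438 and 588 on the control arrays. Replicate 1 was lowest in both groups for 1 of the 8 bone and 4 of the 7 notochord markers, beside the same 18.9% of all genes. Negative differences were found for 10 of the 17 cartilage, 6 of the 8 bone and 2 of the 7 notochord markers, beside 46.5% of all genes. At an unadjusted p under 0.05, limma called 1 bone marker lower (spp1, -0.77) and 1 cartilage marker higher (matn3b, 0.51), beside 4.27% and 1.68% of all genes. With the block it called 1 bone marker (spp1) and 2 cartilage markers lower and 1 cartilage marker (matn3b) higher, beside 6.9% and 2.38% of all genes. The 2 were matn1 (-1.10, limma unadjusted p = 0.00448, adjusted p = 0.511) and ucmaa (-0.48, limma unadjusted p = 0.0234, adjusted p = 0.652). The part of all these marker lists in the collagen values was not tested.

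The symbols COL7A1, COL13A1 and COL25A1, written in capitals in the platform's table, were outside the rule, and their differences were 0.05, 0.02 and 0.03. The symbol col7a1l, which met it, had 0.02 (standard error 0.26) and was named after its value was seen. No gene was assigned to the transcript clusters that carried a collagen symbol beside another, col5a3a with col5a3 and klhl41b with col28a2b. The same held for a cluster with col4a3bp and cert1a, where col4a3bp begins like a collagen symbol but is not a collagen gene. The 14 collagen genes not described singly had differences between -0.25 for col8a2 and 0.12 for col28a2a, and each was lower in some replicate pairs and higher in others.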

How the data were processed

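The authors hybridised RNA to Affymetrix GeneChip Zebrafish Gene ST arrays and deposited log2 signals, 1 per transcript cluster and array, already summarized and on a nearly common scale. The labels list MAS5 without its role, and the background correction and normalization are not given in the sources used here. How far dim signals are compressed is therefore not known. Symbols were taken from the table of the platform. All 48 collagen genes matched a current RefSeq gene (GRCz12tu) by Entrez ID.

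Metronidazole was compared with control on the deposited values by limma 3.58.1 in R 4.3.3 (lmFit, eBayes, two-sided, 4 residual and 2.69 prior degrees of freedom), as an unpaired test like that of the methods, and with the replicate number as a block (2 residual degrees of freedom). Deviations from the group means correlated at 0.241, 0.148 and 0.127 between arrays of the same number and at -0.171 to 0.0506 between the others, so the numbers, like the 3 batches of larvae in the methods, were read as pairing the arrays. Such deviations sum to 0 over the 3 arrays of a group, so these correlations depend on each other and do not test the pairing. The labels do not say whether replicates were separate clutches.

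Named were collagen genes at 2-fold or more, the 6 with the lowest p and the 4 with the highest signal in each class, a few well known chains, and 4 genes by p of each list of genes that serve collagen. Cell type markers were named outside this rule. The members, lists and tests were chosen with earlier results of these data known. Alternatives were quantile normalization, median centring, a filter on dim clusters, the block, each array left out, an intensity trend, array weights, the methods' t-test, linear ratios and the mean of a gene's clusters. The unpaired fit was tested on simulated data with independent noise on each array. No effect of the replicate number was simulated, so that test does not cover the replicate differences described here. Counts and figures used pandas 2.3.3 and matplotlib 3.10.9 under Python 3.11.15.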

Additional observations from a re-analysis of the deposited data

How the results depend on the processing

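Under every alternative limma or the methods' t-test called 0 collagen genes at the adjusted p, in either direction. At an unadjusted p under 0.05 the replicate block, that is the pairing by replicate number, gave 9 lower instead of 0, array weights 1 lower and 1 higher, and leaving out both arrays of replicate 1, chosen after the data were examined, 8 lower. Of all genes, 6.9% were lower with the block and 7.89% without replicate 1. With array weights 7.4% of all genes were lower and 4.47% higher, so the collagen counts there were no more than these shares. With both arrays of replicate 1 left out, 20 collagen genes were lower and 5 higher without overlap, beside 21.7% and 28.2% of all genes. The unpaired fit had called 0 collagen genes, so there was no call that the block could end. With all transcript clusters of a gene averaged, 0 genes met the fold criterion, and among clusters above the median 1 gene was higher in every pair. Array weights turned the sign of col12a1a (-0.05), col15a1a (-0.12) and col4a1 (0.01), the mean of a gene's clusters that of col15a1a (-0.00), and leaving out replicate 1 those of col12a1a (-0.03), col15a1a (-0.17), col4a1 (0.07) and col4a2 (0.05). The cause was not tested.

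With 1 array left out at a time, 0 to 1 collagen genes were lower at the unadjusted p, 0 to 9 met the fold criterion on the lower side (0 without control replicate 2, 9 without control replicate 1), and 0 to 19 lower and 1 to 6 higher did not overlap. The 1 gene at the unadjusted p was found without control replicate 1, beside 7.91% of all genes. The share of all genes at the fold criterion was not counted with arrays left out, so those counts are not read as a result about collagen. The 19 were found without control replicate 1, beside 16.2% of all genes, and the 6 without metronidazole replicate 2, beside 10.7%. The median ranged from -0.33 to 0.06 over all 48, -0.70 to 0.08 over fibrillar, -0.12 to 0.15 over basement membrane and -0.27 to 0.01 over other genes. Single genes ranged as follows. Type I lay between -1.83 and 0.52 for col1a1a, -1.41 and 0.23 for col1a1b and -1.38 and 0.04 for col1a2. Other fibrillar genes lay between -1.57 and 0.42 for col2a1a, -0.61 and 0.00 for col5a2a and -0.80 and 0.07 for col11a1b. In basement membrane genes the bounds were -0.15 and 0.16 for col4a1, -0.26 and 0.23 for col4a2, -0.65 and 0.14 for col4a5, -0.41 and 0.08 for col4a6, -0.06 and 0.26 for col15a1a, -0.44 and 0.26 for col18a1a and -0.12 and 0.01 for col18a1b, and in laminins -0.78 and 0.00 for lamb1a and -0.82 and 0.00 for lamb4. In the others they were -0.58 and 0.03 for col6a1, -1.18 and 0.02 for col6a2, -1.12 and 0.30 for col9a1a, -0.15 and 0.18 for col12a1a and -1.0 and 0.37 for col17a1a. For col1a1a the lowest value was without control replicate 1 and the highest without metronidazole replicate 1.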
